A study of Mus musculus with 12 samples.

Results

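The clustered protocadherins were followed in hippocampal RNA of mice from 2 Shank2 mutant lines. Members were all genes whose symbol begins with Pcdha, Pcdhb or Pcdhg followed by the number or letter of a cluster gene. Of the 24590 gene identifiers listed in at least 1 mouse, 24 met this rule: 1 in the alpha cluster, 22 in the beta cluster and 1 in the gamma cluster. The annotation used for symbols holds 58 such genes, and the other 34 were not analysed here, because their identifiers are numbered above the highest one in the files, which use Ensembl release 74. All 22 beta genes were therefore covered, but only 1 of 14 alpha genes and 1 of 22 gamma genes.

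Clustered protocadherins are adhesion proteins of the neuronal surface, encoded in tandem arrays on a single chromosome. Each alpha and gamma gene contributes a variable first exon that carries the promoter and the extracellular and transmembrane part, and this exon is spliced to constant exons shared by its cluster, whereas a beta gene is a single exon with no shared part. Promoter choice, which depends on CTCF and cohesin looping and on DNA methylation, lets a neuron express only a few of the genes, and the resulting proteins bind like proteins on other membranes, which serves self-recognition and self-avoidance of dendrites and axons. The C-type genes at the 3′ ends of the alpha and gamma clusters are an exception, since most neurons of a given type express them without random choice.

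The data are poly(A)-selected RNA-seq libraries of hippocampi of male mice, whose strain the labels give as a mix of C57BL/6J and C57BL/6N. Shank2 encodes a scaffold protein of excitatory synapses. In the exon 6-7 line the knockouts lack exons 6 and 7, in the exon 7 line they lack exon 7, and each line has its own wild-type littermates as controls. There were 3 mice in each of the 4 groups, and the labels give an age of 8 to 15 weeks for the mice of the behavioural experiments, with no age for each library; they name no Cre driver or transgene.

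Values are FPKM (fragment counts divided by transcript length and by the library's mapped total), rescaled so that the typical gene has the same level in each library, and are called scaled FPKM. They are per length, so levels of genes that each have their own identifier can be set side by side. The difference between the lines' wild types still followed transcript length (Spearman coefficient 0.67 over 14060 genes). Orders of genes of unlike length are therefore a description. The files hold no read totals; the steps between the lowest values put depth, relative to 1 exon 6-7 wild-type library, between 0.908 and 1.19 for exon 6-7 mice and between 0.732 and 1.23 for exon 7 mice. Shank2 was at 13.8 to 14.9 scaled FPKM in exon 6-7 wild types and 6.15 to 7.02 in their knockouts, whereas the exon 7 groups overlapped, at 36.0 to 44.1 and 33.2 to 44.6; loss of 1 exon need not lower a gene-level value. All 5 markers of excitatory neurons, including Slc17a7 (393 to 487 scaled FPKM), were present in every mouse. The 12 libraries fall into a set A of 4 and a set B of 8, which differ in whether 1 gene outside the clusters is listed at all; each group has 1 mouse in set A. Choroid plexus markers summed to 41.9 to 8598 scaled FPKM in the exon 6-7 wild types, 6715 to 8395 in their knockouts and 1419 to 2286 in the exon 7 mice, so 1 group varied widely in how much of that tissue its samples held.

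The alpha identifier (ENSMUSG00000007440, chromosome 18, 37005203 to 37187657, plus strand, mm10 coordinates of the GENCODE M21 annotation) spans a variable exon and the constant exons to the end of the cluster. The annotation names it Pcdha11, a symbol it also gives to another identifier, while the RefSeq start of Pcdha10 lies inside its first exon (37005203 to 37007701). Of all stretches of 50 bases in its longest transcript, 60.1% also occur in transcripts of other genes, nearly all of them other alpha genes, so its value can hold reads of the whole alpha cluster. The gamma identifier (ENSMUSG00000023036, chromosome 18, 37815079 to 37841873) carries the symbol Pcdhgc4, a C-type gene whose protein is needed for survival of many neurons in mice, and shares 41.6% of such stretches with other gamma genes, so its value too can hold reads of its whole cluster. The sources used here do not give which transcripts release 74 placed under these 2 identifiers, so they are called the alpha and the gamma identifier. Pcdhgc4 is the only one of the 5 C-type genes with an identifier in the files. Beta genes shared far less, from 0% for Pcdhb1 to 12.0% for Pcdhb12, so their values are largely their own. Pcdhb21 and Pcdhb22 overlap by 455 bases on the same strand, and reads there cannot be assigned to either with certainty.

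The gamma identifier had the highest level of the members, with a mean of 124 scaled FPKM over the 12 mice, followed by the alpha identifier at 34.2. Every beta gene was lower, but a beta value is that of 1 gene, while either identifier may sum many genes, so these levels cannot be ranked gene against gene. Pcdhb17 led with 4.26, followed by Pcdhb9 with 4.13 and Pcdhb20 with 3.44 scaled FPKM, and together these 3 genes made up 24.0% to 37.6% of the summed beta level in a mouse. Pcdhb8 (0.683) and Pcdhb1 (0.0232 scaled FPKM) had the lowest means. Pcdhb1, whose promoter lacks the conserved sequence element that most cluster promoters share, was not listed in any of the 6 exon 6-7 mice and stood at 0.0310 to 0.104 scaled FPKM in the 6 exon 7 mice. The other 23 members were listed in all 12 mice.

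**Figure D1:**
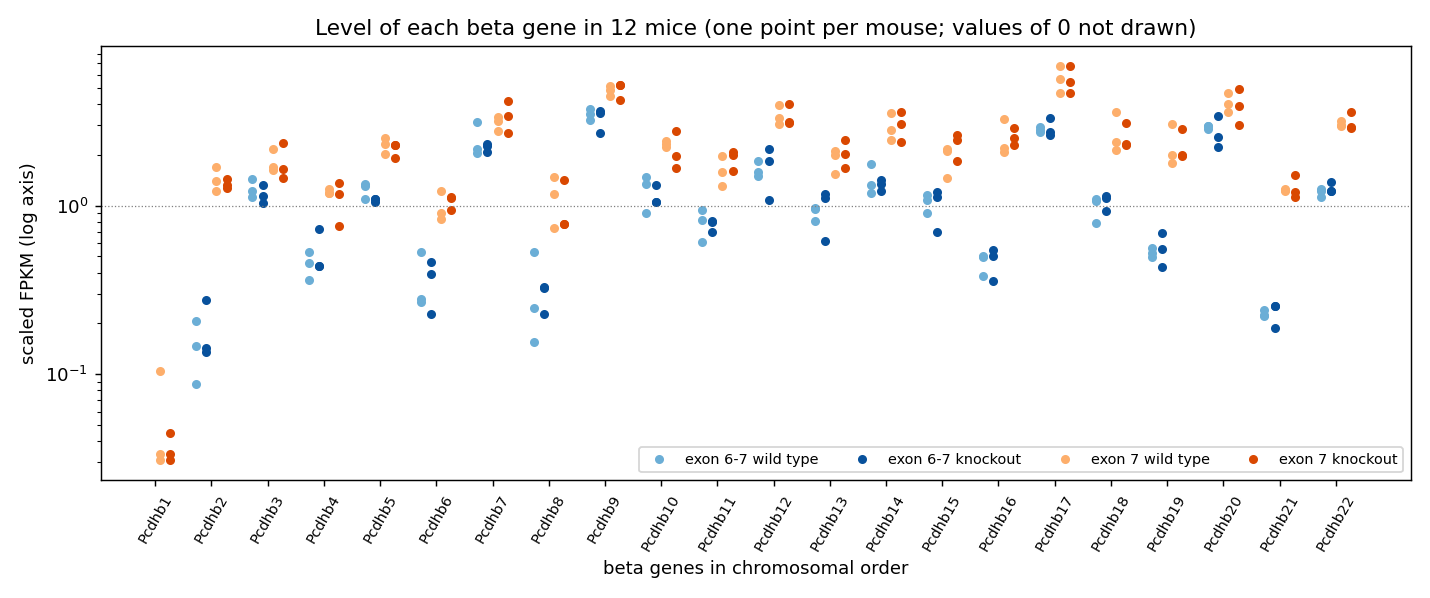
Scaled FPKM (log axis) of each of the 22 beta genes in chromosomal order, 1 point per mouse, coloured by group; the dotted line marks 1 scaled FPKM and values of 0 are not drawn. Knockout and wild-type points of a line lie among each other for every gene, while exon 7 points lie above exon 6-7 points for nearly all genes.

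The order of the beta genes was alike in both lines, with a Spearman coefficient of 0.878 between the line means of the 22 genes, a description over genes that share the same libraries. In the exon 6-7 line Pcdhb9 came first (3.40), then Pcdhb17 (2.86) and Pcdhb20 (2.83); in the exon 7 line Pcdhb17 came first (5.67), then Pcdhb9 (4.86) and Pcdhb20 (4.04 scaled FPKM). Neighbours in this order mostly could not be told apart. Of the 21 neighbouring pairs in each line, the ranges over 6 mice were separate for 1, which in both lines was the pair of Pcdhb1 and the gene next above it. Spread between mice was larger for beta genes than for the median gene: the median coefficient of variation within groups was 16.9% over the 16 beta genes tested and 12.4% over all 14220 genes tested, beside 3.16% for the alpha identifier and 9.23% for the gamma identifier, whose levels are far higher. The beta genes tested averaged 1.27 to 4.26 scaled FPKM, whereas 10221 of all genes tested averaged at least 5 FPKM. Spread was not compared with that of genes at a like level.

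Tests used limma on log2(scaled FPKM + 1), with all 4 groups in 1 fit and Benjamini-Hochberg adjustment over the 14220 genes that averaged 1 FPKM or more; a gene is called at an adjusted p under 0.05. Of the 24 members, 18 passed this filter: the alpha and gamma identifiers and 16 beta genes. Pcdhb1, Pcdhb2, Pcdhb4, Pcdhb6, Pcdhb8 and Pcdhb21 did not. For 4 of the 18 (Pcdhb11, Pcdhb13, Pcdhb16 and Pcdhb19) the mean in the exon 6-7 line was under 1, so that they passed through the exon 7 line alone and had to differ between the lines; counts over the 18 in line comparisons are therefore a description. All 24 were also tested in a fit with no filter over 24378 genes. Fold changes on this scale understate the change of genes near or below 1 FPKM. In bulk tissue, fewer cells of a type and less RNA per cell cannot be told apart.

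The first question was whether loss of Shank2 exons 6 and 7 came with other levels of clustered protocadherins than in littermate wild types. No member was called in limma's test. The alpha identifier stood at 24.4, 23.0 and 25.1 scaled FPKM in the 3 wild types and at 25.5, 24.3 and 24.5 in the 3 knockouts, and the gamma identifier at 101, 113 and 118 against 99.3, 113 and 118. The ranges of wild types and knockouts overlapped for both. The summed beta level was 25.9 ± 1.65 in wild types and 25.3 ± 2.85 scaled FPKM in knockouts (SD, n = 3 each).

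None of the 18 members tested was called, beside 0.0141% of all genes tested, and none had an unadjusted p under 0.05. Their log2 fold changes ran from -0.11 to 0.06 with a median of -0.01, beside a median of -0.0020 over all genes (5% to 95% range -0.24 to 0.25), and the 95% intervals lay between -0.43 and 0.40. The alpha identifier differed by 0.034 (95% interval -0.12 to 0.19) and the gamma identifier by -0.0073 (-0.25 to 0.23). Of the 18 members 8 were above 0. With length and GC trends removed this was 1 of 18 (median -0.07, 0 called), beside 6674 of 14060 genes (median -0.0064). With no filter, 0 of 24 members were called (background 0.0205%), and no member had wild types and knockouts that did not overlap, beside 9.1% of all genes. The members with the smallest unadjusted p were Pcdhb5 (-0.11), Pcdhb7 (-0.08) and Pcdhb20 (-0.09) among those below 0, and the alpha identifier, Pcdhb22 (0.04) and Pcdhb18 (0.06) among those above 0. Pcdhb5 was at 1.10, 1.31 and 1.34 scaled FPKM in wild types and at 1.10, 1.05 and 1.10 in knockouts, so that the lowest wild type fell among the knockouts. The intervals leave room for differences of up to about the sizes given, and a p that misses the threshold does not show equal levels. No cell type marker was called in this comparison, but some lists lay to one side of 0 on the log2 scale. All 6 choroid plexus markers (median 1.41) and all 5 meningeal markers (0.63) were above 0, and all 5 oligodendrocyte (-0.37), all 4 microglial (-0.11) and all 7 inhibitory neuron markers (-0.09) were below 0. The last 2 depend on scaling: as TPM 1 of 4 microglial and 3 of 7 inhibitory neuron markers were above 0, as were 3 of 7 after quantile normalization and 2 of 7 with length and GC trends removed. Their part in the members' values was not tested.

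**Figure D2:**
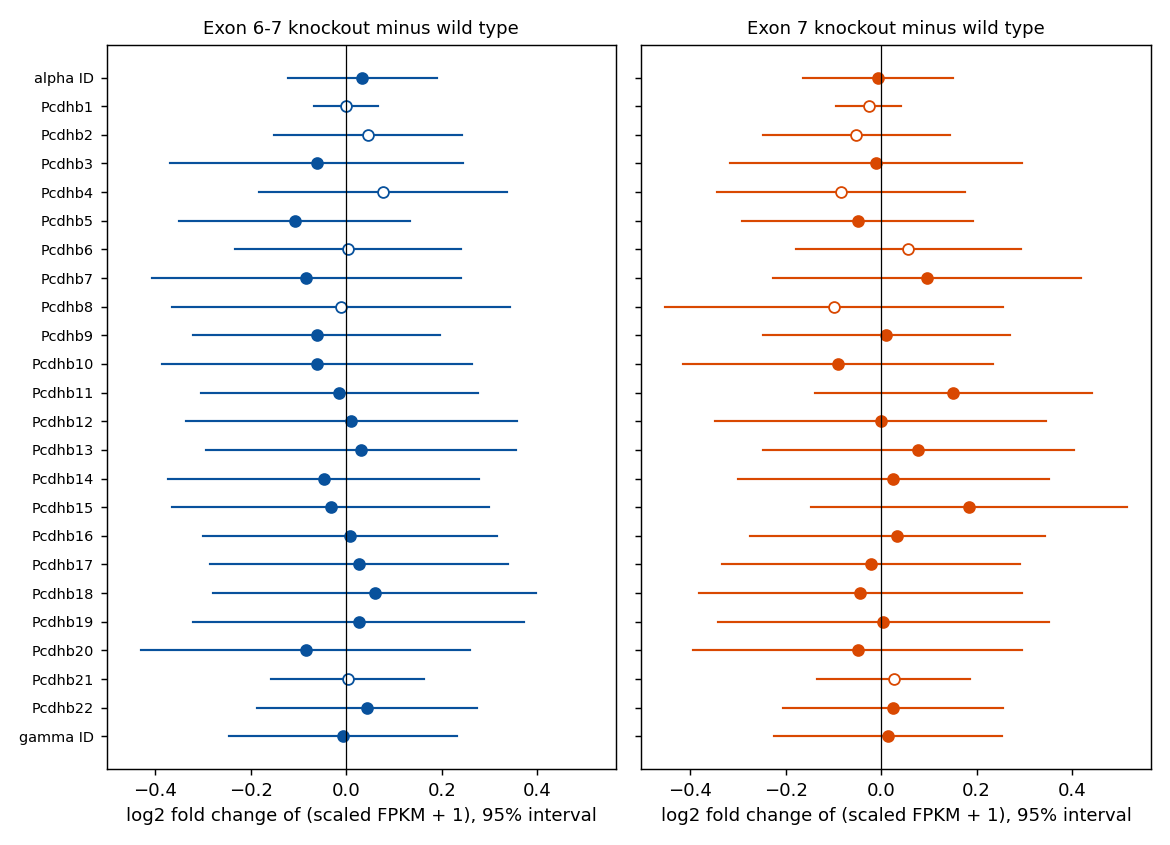
Log2 fold change of (scaled FPKM + 1) between knockout and wild type with its 95% interval for each member, exon 6-7 line on the left and exon 7 line on the right; filled circles are from the fit with the filter, open circles from the fit with no filter for the 6 members below it. Every interval includes 0.

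The same question in the exon 7 line gave the same count. The alpha identifier stood at 44.0, 43.6 and 44.6 scaled FPKM in wild types and at 44.7, 45.4 and 41.6 in knockouts, and the gamma identifier at 126, 150 and 136 against 121, 149 and 147. Both pairs of groups overlapped. The summed beta level was 52.6 ± 5.73 in wild types and 53.2 ± 5.43 in knockouts (SD, n = 3 each).

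None of the 18 members tested was called by limma, beside 0% of all genes tested, and none had an unadjusted p under 0.05. Log2 fold changes ran from -0.09 to 0.18 with a median of 0.01, beside -0.01 over all genes, and 95% intervals lay between -0.41 and 0.52. With no filter 0 of 24 were called (background 0.0041%), and again no member had groups that did not overlap (6.64% of all genes). Pcdhb15 had the smallest p, with a log2 fold change of 0.18, then Pcdhb11 (0.15) and Pcdhb7 (0.10); below 0 these were Pcdhb10 (-0.09), Pcdhb5 (-0.05) and Pcdhb20 (-0.05). Pcdhb15 was at 2.18, 2.10 and 1.46 scaled FPKM in wild types and 2.62, 2.45 and 1.85 in knockouts, where the lowest knockout lay below the upper pair of wild types. The alpha identifier differed by -0.0064 (95% interval -0.16 to 0.15) and the gamma identifier by 0.014 (-0.23 to 0.25). No cell type marker was called in the exon 7 line either. All 5 oligodendrocyte markers (median -0.10) were below 0. All 5 excitatory neuron markers (0.03) and 5 of 6 choroid plexus markers (0.23) were above 0. As TPM 1 of 5 oligodendrocyte markers was above 0, and with length and GC trends removed 4 of 5 excitatory neuron markers were. The markers' part in the members' values was not tested.

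The knockout effects of the lines were also compared with each other. None of the 18 members differed between lines in limma's interaction test (0.00703% of all genes did), with differences from -0.10 to 0.22 and intervals between -0.58 and 0.69. The mean effect over both lines was likewise called for 0 of 18 members (background 0.0141%), with values from -0.08 to 0.08 and intervals between -0.31 and 0.31. None of these 18 had an unadjusted p under 0.05 in either test.

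**Figure D3:**
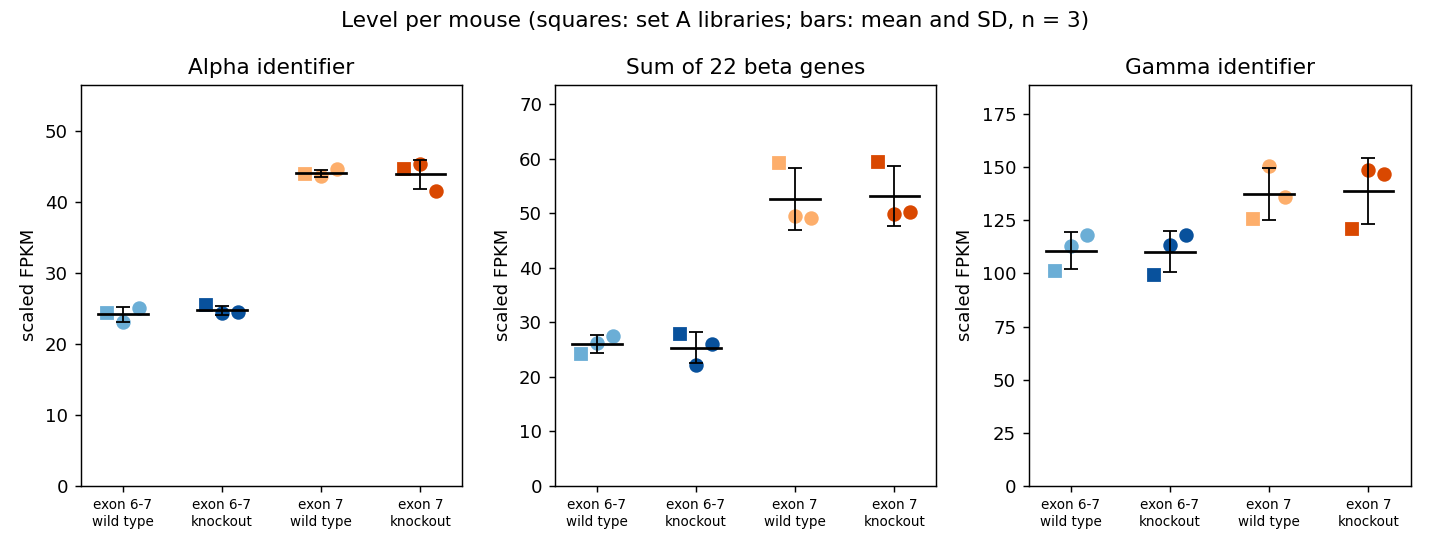
Scaled FPKM per mouse of the alpha identifier, the summed 22 beta genes and the gamma identifier in the 4 groups; squares are set A libraries, circles set B, horizontal lines the mean and bars the SD of 3 mice. Knockouts overlap their wild types in each panel, and exon 7 mice lie above exon 6-7 mice in each.

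Levels differed between the lines. In the wild types, the summed beta level was 24.2, 26.2 and 27.4 scaled FPKM for exon 6-7 mice and 59.3, 49.5 and 49.2 for exon 7 mice, and every exon 7 mouse was above every exon 6-7 mouse. Limma called 15 of the 18 members tested higher in exon 7 wild types and 0 lower, beside 33.9% of all genes called higher and 67.1% called in either direction. All 18 log2 fold changes were above 0, with a median of 0.58, beside -0.01 over all genes, and all were above 0 on FPKM as deposited, after quantile normalization and as TPM, but 14 of 18 with length and GC trends removed. Line cannot be told apart here from whatever else differed between the lines' samples. Of the 14 members whose exon 6-7 mean was at least 1 FPKM, 11 were called higher. With no filter, 20 of 24 members were called higher (background 22.2%), and 23 of 24 had exon 7 wild types all above exon 6-7 wild types (25.4% of all genes); Pcdhb7 was the exception. The ratio of group means had a median of 2.06 over the members with values in both lines.

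The alpha identifier differed by 0.84 ± 0.07 on the log2 scale (SE, limma adjusted p = 9.6e-07), a ratio of means of 1.82, from 23.0 to 25.1 scaled FPKM in one line to 43.6 to 44.6 in the other. Pcdhb22 was at 1.13, 1.22 and 1.26 scaled FPKM in exon 6-7 wild types and at 2.99, 3.03 and 3.17 in exon 7 wild types (log2 fold change 0.88 ± 0.11, adjusted p = 1.42e-05 by limma), groups that lie far apart. Pcdhb18 (0.89), Pcdhb17 (0.80), Pcdhb14 (0.70) and Pcdhb5 (0.55) were also called, and each had a mean of at least 1 FPKM over the 6 exon 6-7 mice. Pcdhb16 and Pcdhb19, which passed the filter only through the exon 7 line, had the largest log2 differences, 1.25 and 1.08, given as a description. Pcdhb16 was at 0.502, 0.499 and 0.383 scaled FPKM in exon 6-7 wild types and 3.25, 2.21 and 2.08 in exon 7 wild types, and Pcdhb19 at 0.525, 0.498 and 0.561 against 3.06, 2.01 and 1.79. The Spearman coefficient of the line difference with the start coordinate in the beta cluster was 0.16 for the ratio of means (21 genes) and 0.47 on the log2(scaled FPKM + 1) scale (22 genes), a description over genes that share libraries. Pcdhb2, below the filter, had the largest ratio of means, 9.79, from 0.0870, 0.148 and 0.207 to 1.40, 1.22 and 1.71 scaled FPKM, and Pcdhb21 followed Pcdhb16 (5.45) with 5.41. The smallest differences among the beta genes tested were those of Pcdhb9 by 0.38 (called), Pcdhb20 by 0.37 (adjusted p = 0.0546), Pcdhb3 by 0.32 (adjusted p = 0.0585) and Pcdhb7 by 0.27 (adjusted p = 0.131), of which the last 3 did not pass limma's threshold.

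The gamma identifier differed least among the called members, by 0.31 ± 0.11 (limma adjusted p = 0.0258), from 101, 113 and 118 to 126, 150 and 136 scaled FPKM. This call was lost without the set A wild type of the exon 6-7 line (0.24, adjusted p = 0.0979 by limma), without either set B wild type of the exon 7 line (0.24 and 0.31, adjusted p = 0.101 and 0.0527) and on FPKM as deposited (0.15, adjusted p = 0.297).

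The knockout mice are other animals, and the same difference was measured in them. Exon 7 knockouts were higher than exon 6-7 knockouts for 18 of 18 members tested (background 31.4% called higher), with a median of 0.71, and for 22 of 24 with no filter (20.3%). Values lay close to those of the wild types: 0.80 for the alpha identifier, 0.86 for Pcdhb22, 0.75 for Pcdhb17 and 0.33 for the gamma identifier. The gamma call was again lost on FPKM as deposited (0.18, limma adjusted p = 0.235) and with length and GC trends removed (0.045, adjusted p = 0.712). It was also lost without the set A knockout of the exon 6-7 line (0.26, adjusted p = 0.0865 by limma). Leaving out either set B knockout of the exon 7 line lost it too (0.28 and 0.28, adjusted p = 0.0794 and 0.0706). Within set A, which has 1 mouse per group, and within set B, which has 2, all 24 members were above 0 in the wild types, for example 0.83 and 0.85 for the alpha identifier and 0.90 and 0.87 for Pcdhb22.

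Because the lines differed for most genes, members were set beside transcript length. Across the 14060 genes with a length, the wild-type line difference had a Spearman coefficient of 0.67 with the length of the longest transcript and of -0.41 with its GC content, a description over genes that share the same libraries. The median length of the members was 3724 bases, beside 3295 for all genes tested, and the longest were Pcdhb14 (8695), Pcdhb19 (7138) and Pcdhb22 (6609 bases). Among the 22 beta genes the line difference on the log2(scaled FPKM + 1) scale had a coefficient of 0.51 with length. For the ratio of means it was 0.34 (21 genes). Length and GC content of the beta genes are themselves related at -0.93.

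**Figure D4:**
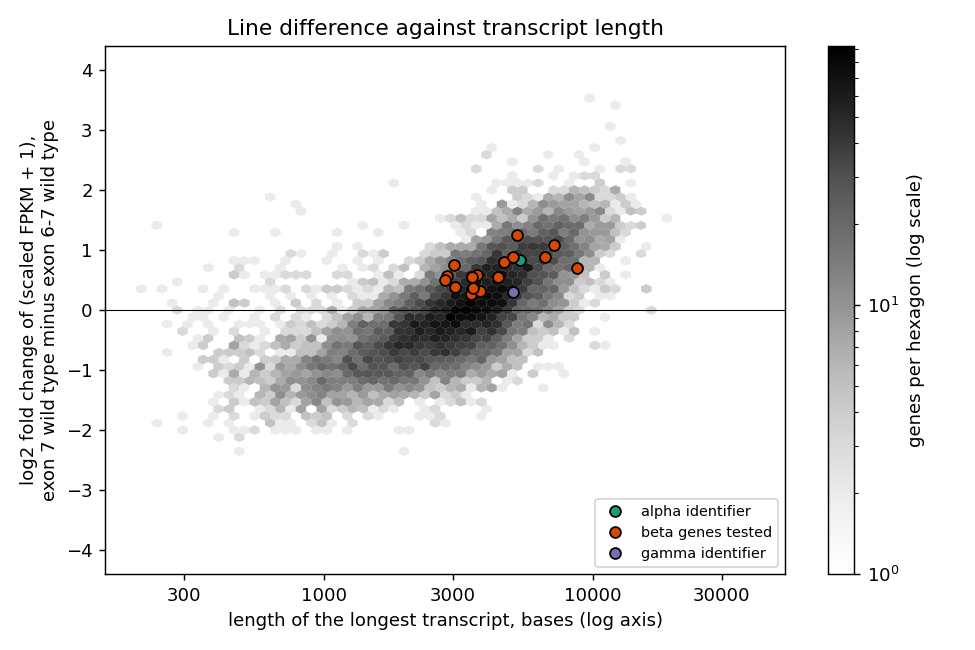
Log2 fold change between exon 7 and exon 6-7 wild types (vertical axis) against length of the longest transcript in bases (horizontal, log axis); grey hexagons count all genes tested with a length, and coloured points are the 18 members tested. Members lie above 0 within a cloud that climbs with length.

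With smooth trends of length and GC content over all genes removed from each library, limma called 8 of the 18 members higher in exon 7 wild types, beside 24.5% of all genes (48.1% in either direction), and 1 lower, and the median was 0.18. In the knockouts it called 9 higher (background 21.6%, and 42.6% in either direction) and 1 lower, with a median of 0.30. Members called the same way in both comparisons numbered 9. Of these, 8 were higher in the exon 7 line: the alpha identifier (0.18 in wild types and 0.24 in knockouts), Pcdhb5 (0.39 and 0.48), Pcdhb9 (0.35 and 0.44), Pcdhb10 (0.63 and 0.60), Pcdhb12 (0.76 and 0.76), Pcdhb13 (0.36 and 0.45), Pcdhb15 (0.57 and 0.79) and Pcdhb16 (0.53 and 0.67); of these, Pcdhb13 and Pcdhb16 passed the filter only through the exon 7 line. The ninth, Pcdhb14, the longest, turned from 0.70 to -0.64 in wild types and from 0.77 to -0.40 in knockouts. Pcdhb19 went from 1.08 to -0.01, Pcdhb22 from 0.88 to -0.05 and the gamma identifier from 0.31 to -0.01 in wild types, and none of these 3 was called. Calls in wild types were also lost for Pcdhb11 (0.54 to 0.06), Pcdhb17 (0.80 to 0.26) and Pcdhb18 (0.89 to 0.18), at 4419, 4660 and 5041 bases. The alpha identifier (5359 bases, 0.84 to 0.18) and Pcdhb16 (5225 bases, 1.25 to 0.53) are longer than these and kept their calls at smaller values. For the alpha and gamma identifiers, length and GC content are those of the longest GENCODE M21 transcript. The transcripts behind their values are not known, so this step may not apply to them. The direction for Pcdhb14 and several calls thus depend on this step. Pcdhb10, Pcdhb12 and Pcdhb15, which are among the shortest at 2851, 3034 and 2801 bases, kept their values within 0.1. How far a value moves in this step is set by the gene's length and GC content. A value that stayed is therefore a description and no test of that gene.

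**Figure D5:**
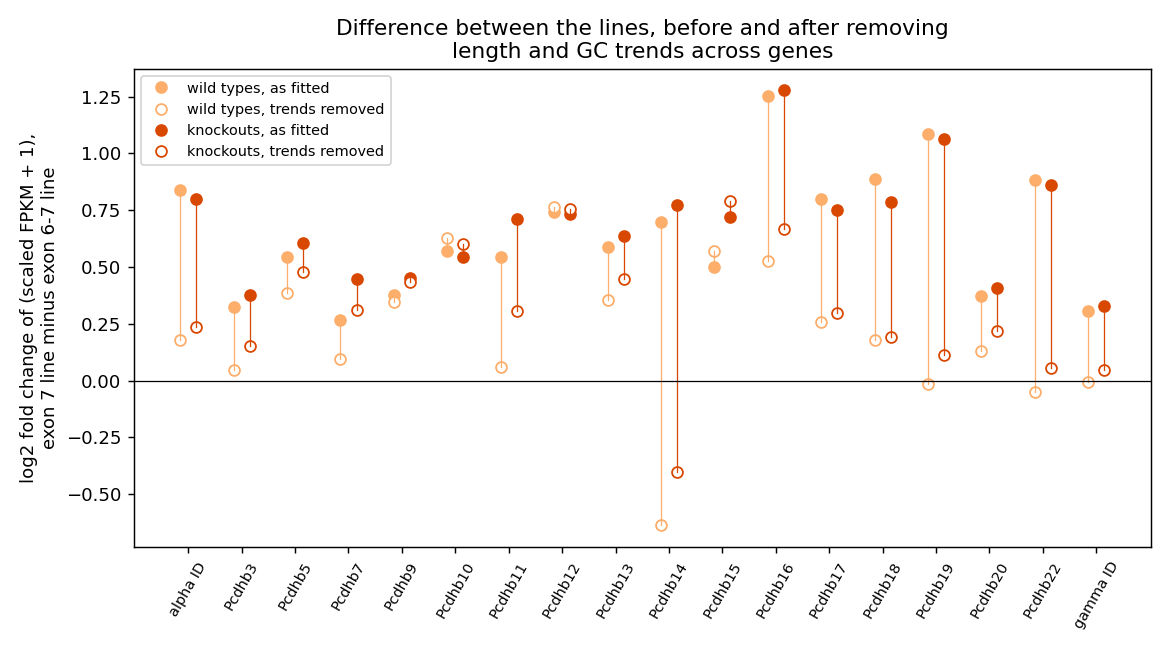
Log2 fold change between the lines for the 18 members tested, in wild types and in knockouts, as fitted (filled) and with length and GC trends removed (open). Open circles lie far below filled ones for the longest genes, with Pcdhb14 below 0, and close to them for Pcdhb9, Pcdhb10, Pcdhb12 and Pcdhb15.

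The make-up of the summed beta level also differed between lines. Shares of Pcdhb1, Pcdhb2, Pcdhb16, Pcdhb19 and Pcdhb21 were higher in all 6 exon 7 mice than in all 6 exon 6-7 mice, shares of Pcdhb3, Pcdhb9 and Pcdhb20 were lower, and the other 14 overlapped. Pcdhb1 was not listed in any exon 6-7 mouse, so its share there was 0. Over 21 beta genes the wild-type ratio of means had a Spearman coefficient of -0.83 with the exon 6-7 wild-type level. That level is also the denominator of the ratio, so part of this coefficient is built in. Pcdhb16 made up 1.82% of the sum in exon 6-7 mice and 4.78% in exon 7 mice, and Pcdhb9 13.3% and 9.23%. Knockouts and wild types were pooled for these shares, which are given as a description. The length and GC trends were left in the shares. With the trends removed, the wild-type line difference was 0.53 for Pcdhb16 and -0.01 for Pcdhb19, whose shares were higher. It was 0.05 for Pcdhb3, 0.35 for Pcdhb9 and 0.13 for Pcdhb20, whose shares were lower. How far the shares follow transcript length was not tested.

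Set A and set B libraries differed for some members. The gamma identifier was lower in set A in both lines: 99.3 and 101 scaled FPKM against 113 to 118 in the exon 6-7 line (-0.20, limma adjusted p = 0.0552) and 121 and 126 against 136 to 150 in the exon 7 line (-0.24, adjusted p = 0.00922). Within the exon 7 line Pcdhb17, Pcdhb18 and Pcdhb19 were higher in set A, by 0.35, 0.40 and 0.43 (adjusted p = 0.0289, 0.0272 and 0.0215 by limma). That makes 4 of 18 members called in the exon 7 line (background 31.5%) and 0 of 18 in the exon 6-7 line (6.79%). Each group holds 1 set A mouse, so the sets are balanced in every comparison above.

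Genes around this family were read from lists. Of 26 genes of promoter choice and chromatin, 25 were tested and 0 were called in either knockout comparison, with medians of 0.11 (exon 6-7) and -0.05 (exon 7) for the log2 fold change. Between the wild types 23 were higher in the exon 7 line and 1 was lower, with a median of 0.88. Of all genes tested, 0.0141% were called in the exon 6-7 knockout comparison and 0% in the exon 7 one. Between the wild types, 33.9% of all genes were called higher and 67.1% in either direction. Ctcf, which encodes the looping factor, differed by 0.80, Rad21, a cohesin subunit, by 1.08, and Setdb1, a histone methyltransferase that silences chromatin, by 0.72, whereas Smchd1, a repressor of clustered protocadherins in mice, was the 1 lower gene (-0.37, limma adjusted p = 0.0266). Of 12 non-clustered protocadherins, which lie outside the arrays and are each a single adhesion gene, 11 were tested; 10 were higher and 0 lower between the wild types (median 1.52), led by Pcdh9 at 2.57 and Pcdh7 at 2.55, and 0 were called in the knockout comparisons.

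Cytoplasmic partners and processing enzymes, among them the kinases and the WAVE complex that the intracellular parts engage, had 20 of 21 tested, of which 11 were higher and 1, Brk1 (-1.38), was lower between the wild types, with a median of 0.45 and 0 called in either knockout comparison. Of 17 genes next to the clusters on the chromosome, 15 were tested, and 1 was higher and 8 were lower in exon 7 wild types, with a median of -0.47 and the lowest value for Ndufa2, a subunit of respiratory complex I (-2.53). None of these neighbours was called in a knockout comparison. Among all genes tested, 33.9% were called higher between the wild types and 67.1% in either direction. These shares are the background for the lists and for the markers below. With length and GC trends removed, the wild-type line comparison called 9 higher and 3 lower in the list of promoter choice and chromatin (median 0.15), 6 and 0 among the non-clustered protocadherins (0.32), 7 and 3 among the partners (0.13) and 0 and 8 among the neighbours (-0.25). The background in that fit was 24.5% of all genes called higher and 48.1% in either direction. Among cell type markers, 4 of 5 for excitatory neurons were higher between the wild types (median 0.43, summed level 1085 to 1194 against 1425 to 1680 scaled FPKM), and 2 of 7 for inhibitory neurons were higher and 5 lower (median -0.46, which turned to 0.22 with the trends removed). Of 5 oligodendrocyte markers 0 were higher and 3 lower (median -0.44, and 5 lower with the trends removed), and both oligodendrocyte precursor markers were higher (0.80). Of 6 choroid plexus markers 3 were higher and 0 lower (1.14). Between the knockouts 0 of 6 were called (median -0.06), beside 31.4% of all genes called higher. Called higher and lower were 3 and 2 of 5 astrocyte markers, 2 and 1 of 3 endothelial markers, 1 and 1 of 4 microglial markers and 1 and 0 of 5 meningeal markers. The mitochondrially encoded share of summed FPKM was 6.22% to 7.39% in exon 6-7 mice and 10.3% to 14.3% in exon 7 mice. The lists thus lay on both sides of 0 between the lines, and the mitochondrial share was higher in exon 7 mice. Their part in the line difference of the members was not tested.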

How the data were processed

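Hippocampal RNA of 12 mice was analysed, 3 in each of 4 groups named by the labels. Per the file headers, the authors deposited FPKM per Ensembl release 74 gene, 1 file per mouse, with only genes above 0 listed; per the submitters' processing notes, the tools were CASAVA, GSNAP and Cufflinks on mm10, with no settings. How reads that match several genes were shared out is not stated there. Of the identifiers, 24065 had a symbol in GENCODE M21 or the gene name table. FPKM were divided by median-of-ratios factors (0.919 to 1.07, from 12511 genes of at least 1 FPKM in every library). Tests were limma 3.58.1 (R 4.3.3) with a mean-variance trend, two-sided, on log2(scaled FPKM + 1), for genes averaging 1 FPKM or more. Small RNA genes (108) were left out by their annotated type rather than by symbol. The code was tested on simulated data. Length and GC trends were lowess fits with a span of 0.3 per library. Relative depth is the most common ratio between libraries among genes under 0.12 FPKM. Intervals are 95% from the fit; FPKM without read totals allow no counting error. The labels give each library its own mouse number, and p-values measure the spread between these mice.

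Members and lists were chosen with earlier results of these data known, and the set A and B split comes from such a look. Named members are the 3 highest and 2 lowest of each cluster, C-type genes, called members (up to 8 by p), the 3 smallest p each way in knockout comparisons, and members not listed in some mice; other members and genes are named with their values in view. Alternatives changed the pseudocount, filter, scaling, weights, empirical Bayes step, library set, length and GC trends, and left out each library. Sequences of the members are not printed.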

Additional observations from a re-analysis of the deposited data

How the results depend on the processing

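Under the alternatives run, the counts of members called were 0 in each knockout comparison, in the difference of the effects and in the mean effect, and no named member reached the threshold there. The counts for the lines varied more. In wild types and knockouts they were 13 and 14 on FPKM as deposited, 14 and 15 after quantile normalization, 18 and 18 as TPM, and 20 and 22 of 24 with no filter. The background moved too. Of all 14220 genes tested, 4066 and 3674 were called higher on deposited FPKM and 4588 and 4277 after quantile normalization. As TPM these were 5567 and 5240, beside 4826 and 4471 in the fit reported above. With no filter the background was 22.2% and 20.3%. With a filter of 5 FPKM only 2 members were tested, and 2 were called in the wild types (15 before) and 2 in the knockouts (18 before). Of the 10221 genes in that fit, 3525 and 3302 were called higher. With length and GC trends removed 9 were called in the wild types and 10 in the knockouts, counting both directions (background 48.1% and 42.6%). Leaving out 1 library gave 14 to 17 members called in the wild types and 15 to 18 in the knockouts. Genes called higher then numbered 4437 to 4948 and 4032 to 4600 of 14220. FPKM as deposited shifted the median of all genes in the wild-type line comparison to -0.14 and TPM to 0.13.

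Directions turned for knockout effects, none of which was called, and between the lines also for called values that were not near 0. With the trends removed, the exon 6-7 knockout effect was -0.035 for the alpha identifier (Pcdha11), -0.016 for Pcdhb18 and -0.038 for Pcdhb22. Of the 18 members 1 was then above 0 (median -0.07, 0 called), beside 6674 of 14060 genes (median -0.0064). The difference of effects for Pcdha11 was 0.058. The gamma identifier (Pcdhgc4) in the exon 6-7 knockouts was 0.059 after quantile normalization, 0.049 as TPM and 0.0063 with quality weights, and its difference of effects was -0.047 after quantile normalization. Pcdha11 in the exon 7 knockouts was 0.0016 on deposited FPKM, 0.016 after quantile normalization, 0.041 as TPM, 0.0081 with quality weights and 0.023 with trends removed. Pcdhb7 in the exon 7 knockouts was -0.058 with quality weights. Between lines, trends removed gave -0.64 for Pcdhb14, -0.013 for Pcdhb19, -0.050 for Pcdhb22 and -0.0066 for Pcdhgc4 in wild types, and -0.40 for Pcdhb14 in knockouts; Pcdhb14 was called lower in both (adjusted p = 0.00164 and 0.0252 by limma), and the other 3 were not called. The cause was not tested.

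Leaving out 1 library gave these ranges where a direction turned. In exon 6-7 knockouts they were -0.17 to 0.055 for Pcdhb7, -0.011 to 0.11 for Pcdhb18, -0.21 to 0.015 for Pcdhb20 and -0.070 to 0.065 for Pcdhgc4. In exon 7 knockouts they were -0.031 to 0.032 for Pcdha11, -0.11 to 0.011 for Pcdhb5, -0.021 to 0.22 for Pcdhb7, -0.23 to 0.019 for Pcdhb10, -0.19 to 0.093 for Pcdhb20 and -0.047 to 0.11 for Pcdhgc4. The difference of effects for Pcdhgc4 ranged from -0.052 to 0.12.

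No paired analysis was possible because each mouse number occurs in 1 group only. Depth limits the genes under 1 FPKM most, such as Pcdhb1.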
